A study of Mus musculus with 39 samples.

Results

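The genes described here are the secreted ligands of the Wnt pathway, their Frizzled receptors and 3 families of secreted modulators. They were taken from a table of read counts at transcription start sites (TSS) as every entry whose gene symbol names a Wnt ligand, a Frizzled, a secreted Frizzled-related protein (Sfrp), a Dickkopf (Dkk) or an R-spondin (Rspo). This gave 41 of the 24045 TSS in the table: 19 Wnt ligands, 10 Frizzleds, 4 Sfrp genes, 4 Dkk genes and 4 Rspo genes. The choice used gene names only and no measured value.

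Chromatin immunoprecipitation with sequencing (ChIP-seq) had been run for H3K4me3, a histone mark of active and poised promoters, and for H3K27me3, the mark placed by Polycomb repressive complex 2, on granule cells from the cerebellum of C57Bl/6J mice. Postnatal mice of 7, 12 or 21 days (P7, P12 or P21) gave the cells, with no transgene or treatment named in the labels. H3K4me3 was measured in 3 libraries at P7, 2 at P12 and 2 at P21, and H3K27me3 in 5, 4 and 5 libraries. Granule cell progenitors at P7 came from a Percoll gradient, whereas at P12 and P21 fixed nuclei positive for NeuN and NeuroD1 were sorted and sonicated for longer. Stage and isolation cannot be told apart in any comparison with P7, whereas P12 and P21 nuclei were isolated alike. The labels do not say whether replicates came from separate animals, so p-values measure the spread between libraries, which may be technical.

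Wnt proteins are lipid-modified ligands that bind Frizzled receptors together with a co-receptor of the Lrp or Ror kind and act through β-catenin and the TCF/LEF transcription factors, or through β-catenin-independent routes such as planar cell polarity. Sfrp proteins bind Wnts outside the cell, several Dkk proteins block the Lrp co-receptors, and R-spondins raise signalling by keeping Frizzleds at the cell surface. A lower level in such bulk samples can come from fewer marked cells or from less of the mark per cell, which cannot be told apart. In the cerebellum, Wnt1 marks the embryonic midbrain-hindbrain boundary from which the anlage forms, and Wnt7a is made by granule neurons, where it acts on the growing terminals of mossy fibres. Genes of this kind often carry CpG-rich promoters with H3K27me3 and H3K4me3 together in undifferentiated cells, a state called bivalent.

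The TSS of these genes were rich in CpG. Within 500 bases on either side of the TSS, median GC content was 63.5% over the 41 genes and 54.9% over the 23981 TSS with a position, and the median number of CpG was 77 and 41. Frizzled TSS had the highest family median, 66.2%, and Dkk TSS the lowest, 52.8%. RefSeq promoter sequences of GRCm38.p6, 250 bases before to 50 after a start, were matched by symbol for 27 of the 41 genes, with a median of 29 CpG against 7 over 32851 promoters. The TCF/LEF letters CTTTGAT, searched on both strands, stood in 1 of those 27 (Wnt11) and in 3.73% of all promoters, and the E-box letters CAGATG in 1 of 27 (Wnt16) and in 17.2%. Promoters of 4 genes are shown because the results below turn on them and they part ways: Wnt7a (chr6:91411304-91411603, minus strand) lost H3K27me3, Sfrp2 (chr3:83766071-83766370, plus strand) gained it, Wnt1 (chr15:98789607-98789906, plus strand) held the highest level of it, and Fzd4 (chr7:89404116-89404415, plus strand) was left with H3K4me3 alone. Capitals mark CpG, of which these promoters hold 42, 22, 26 and 32. Each window covers the first exon's start and the bases upstream of it.
Wnt7a: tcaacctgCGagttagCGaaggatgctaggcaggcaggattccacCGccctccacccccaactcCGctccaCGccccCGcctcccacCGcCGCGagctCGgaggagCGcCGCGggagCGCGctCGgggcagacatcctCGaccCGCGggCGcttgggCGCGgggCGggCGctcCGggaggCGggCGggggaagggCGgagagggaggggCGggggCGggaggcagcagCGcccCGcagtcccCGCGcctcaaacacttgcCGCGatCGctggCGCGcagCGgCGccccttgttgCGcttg
Sfrp2: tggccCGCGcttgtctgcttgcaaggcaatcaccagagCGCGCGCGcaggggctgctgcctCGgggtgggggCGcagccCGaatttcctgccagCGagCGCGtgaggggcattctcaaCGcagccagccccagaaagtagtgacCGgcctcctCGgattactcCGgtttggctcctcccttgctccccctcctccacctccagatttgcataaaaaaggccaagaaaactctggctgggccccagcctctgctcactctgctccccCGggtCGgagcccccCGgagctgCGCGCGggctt
Wnt1: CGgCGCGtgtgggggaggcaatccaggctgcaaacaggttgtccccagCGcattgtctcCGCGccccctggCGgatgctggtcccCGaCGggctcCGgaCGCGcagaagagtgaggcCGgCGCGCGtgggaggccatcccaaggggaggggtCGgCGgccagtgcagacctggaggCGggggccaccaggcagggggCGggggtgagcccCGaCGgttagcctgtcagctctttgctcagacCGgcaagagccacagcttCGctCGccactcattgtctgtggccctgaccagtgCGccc
Fzd4: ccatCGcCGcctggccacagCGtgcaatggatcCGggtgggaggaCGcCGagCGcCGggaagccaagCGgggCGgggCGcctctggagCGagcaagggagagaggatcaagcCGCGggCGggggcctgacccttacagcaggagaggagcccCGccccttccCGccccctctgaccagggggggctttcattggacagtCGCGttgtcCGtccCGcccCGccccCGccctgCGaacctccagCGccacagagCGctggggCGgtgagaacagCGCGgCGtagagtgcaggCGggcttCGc

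Totals over the TSS table ran from 431401 to 5653193 reads in the H3K4me3 libraries and from 264093 to 2035801 in the H3K27me3 libraries, and levels below are read counts scaled to a common total (CPM) after TMM scaling, a scaling that assumes most TSS unchanged. The libraries differed in how far marked TSS stood above the rest. The 95th percentile of TSS was 22.1 to 45 times the median in P7 H3K27me3 libraries, 5.65 to 12.9 times at P12 and 5 to 10.3 times at P21, and for H3K4me3 it was 5.15 to 9.32 times at P7 and 3 to 4.31 times later. Every difference was therefore also computed with a trended scaling, which removes between-library differences that depend on the level of a TSS. It assumes most TSS of a like level unchanged, so a loss shared by strongly marked TSS would be removed too. A rise or fall with this scaling is relative to TSS of like level. The 2 scalings place the median change of all TSS in H3K27me3, P21 against P7, at 0.34 (TMM) and 0.08 (trended) on the log2 scale, and in H3K4me3 at 0.19 and -0.01. Whether libraries of different stages overlap is stated below in CPM after TMM. TMM factors were 0.588 to 0.670 in P7 H3K27me3 libraries and 0.992 to 1.49 later, so these statements depend on the scaling. By library totals alone, H3K27me3 of P12 replicate 3 lay above P7 replicate 1 at Wnt6, Sfrp5 and Fzd4. The labelled cell type was checked with markers: H3K4me3 fell from P7 to P21 at 8 of 8 tested progenitor markers, whose library medians were 86 to 139 CPM at P7 and 34.9 to 35.4 CPM at P21, and rose at 4 of 7 tested markers of mature granule cells while 2 fell. Among markers of other cells, H3K4me3 fell at 3 of 7 for astrocytes and Bergmann glia and at 2 of 7 for Purkinje cells, rose at 1 of 7 for oligodendrocytes, moved at 1 up and 1 down of 8 for interneurons and of 6 for unipolar brush and nuclear neurons, and passed the test at 0 of 3, 0 of 5 and 0 of 6 for microglia, endothelium, and meninges with choroid plexus. These are calls with TMM, with which 14.4% of all TSS fell and 8.98% rose. With the trended scaling 3.58% of all TSS fell and 2.87% rose. It called 7 of 8 progenitor markers lower, and 3 of 7 mature markers higher and 2 lower. For astrocytes and Bergmann glia, oligodendrocytes and Purkinje cells it called 1 of 7 lower each. It called 1 of 6 higher for unipolar brush and nuclear neurons, and 0 in the remaining lists. The part of other cells in the results below was not tested.

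In P7 progenitors 40 of these 41 TSS had a peak of H3K27me3 nearby, and the families differed in whether H3K4me3 was there too. A TSS was counted for a mark when a region covered by peaks of at least 2 libraries lay within 1 kb of it. For H3K4me3 this meant 2 of 3 libraries at P7 but 2 of 2 at P12 and P21. Counts with this mark at P7 and later are thus not on equal terms. At P7, 22 of 41 TSS had both marks, 18 had H3K27me3 only, 0 had H3K4me3 only and 1 (Dkk4) had neither. Over the 23981 TSS, 13.3% had both marks, 14.4% H3K27me3 only, 35.3% H3K4me3 only and 37.0% neither. All 10 Frizzleds had both marks, as did 3 of 4 Sfrp genes, 2 of 4 Rspo genes, 1 of 4 Dkk genes and 6 of 19 Wnt ligands (Wnt2, Wnt5a, Wnt5b, Wnt9a, Wnt11 and Wnt16). At 5 of the Frizzleds (Fzd1, Fzd2, Fzd3, Fzd7 and Fzd8) H3K27me3 reads at P7 were at percentile 43.9 to 59.9 of all TSS, and these 5 had H3K4me3 only, leaving 17 genes with both marks, when the H3K27me3 peaks came from replicates 1 and 2 alone or when the window was 500 bases on either side. By P21 only Fzd1 and Fzd8 had both marks, 33 had H3K27me3 only, 3 (Wnt7a, Fzd4 and Fzd7) had H3K4me3 only and 3 (Fzd3, Sfrp4 and Dkk4) had neither. Over all TSS at P21, 1.37% had both marks, 17.8% H3K27me3 only, 25.6% H3K4me3 only and 55.2% neither. H3K27me3 at Fzd1 and Fzd8 was then at percentile 58 and 56.6 of all TSS. Both had H3K4me3 only when the H3K27me3 peaks came from replicates 1 and 2 alone. At P12 both marks were found at 5 of 41 of these genes and 2.31% of all TSS.

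**Figure D1:**
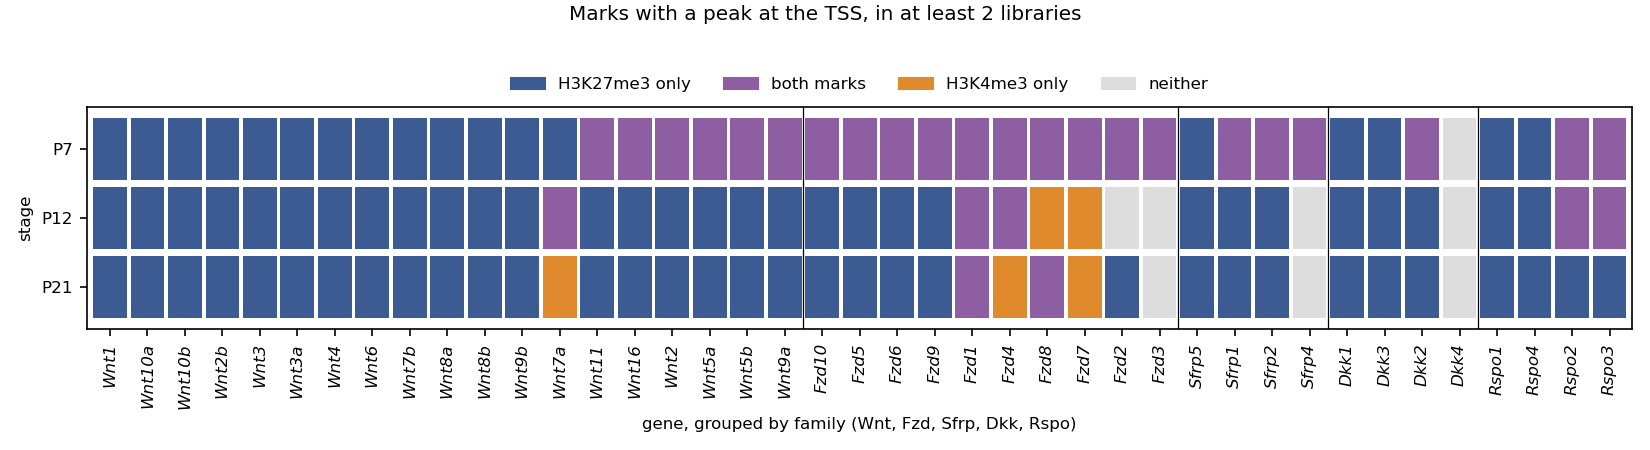
Marks with a peak within 1 kb of each TSS, in at least 2 libraries, for the 41 genes (columns, grouped by family) at P7, P12 and P21 (rows); colours stand for H3K27me3 only, both marks, H3K4me3 only and neither. For H3K4me3, 2 libraries were all there were at P12 and P21. All 10 Frizzled columns start with both marks, and Wnt7a alone passes from H3K27me3 only through both marks to H3K4me3 only. At P7 Wnt7a had an H3K4me3 peak in 1 of 3 libraries.

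Of the 22 genes with both marks at P7, 16 had H3K27me3 only at P21, against 32.4% of the 3193 such TSS over the genome, 2 had H3K4me3 only (35.1%), 2 had both (8.33%) and 2 had neither (24.1%). P12 is not part of these counts: Fzd8, with both marks at P7 and P21, had H3K4me3 only at P12, and Fzd2, with H3K27me3 only at P21, had neither. Among the 16, H3K4me3 reads were called lower at P21 than at P7 at Fzd2, Sfrp1, Sfrp2 and Wnt5a with TMM. With the trended scaling they were called lower at Sfrp1, Wnt5a and Fzd10. At the rest of the 16 no H3K4me3 change passed the test, so their change of class rests on peak calls. Of the 18 genes with H3K27me3 only at P7, 17 were still in that class at P21 (70.4% of 3450 TSS) and 1, Wnt7a, had passed to H3K4me3 only (2.2%). At P7 Wnt7a had an H3K4me3 peak in 1 of 3 libraries. Its mean H3K4me3 of 28.6 CPM lay above Fzd9 (28.5), Wnt16 (23.4) and Fzd10 (19.1), the lowest of the class with both marks. These counts have no replicate error and rest on few libraries. The count with both marks at P7 was 13 without H3K4me3 replicate 1 or replicate 3. Leaving out H3K4me3 replicate 1 raised it to 18 at P21, where a peak in the 1 library left then sufficed. The P21 replicate 1 had 6219 peaks against 10087 in replicate 2. The unprecipitated input libraries of H3K27me3 replicates 3 and 4 also had peaks at 16 to 34 of the 41 TSS, against 0 in every other input. In an alternative, every peak that overlapped an input peak of its mark and stage anywhere along its length was dropped whole. This left 2, 0 and 0 genes with both marks at P7, P12 and P21. The rule also removes wide peaks without an input peak at the TSS. At Wnt6, 0 of 4 P7 inputs had a peak at the TSS, yet it no longer counted for H3K27me3 at P7.

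From P7 to P21, Wnt7a showed the largest change among the 40 genes tested in each mark, with H3K27me3 falling and H3K4me3 rising under both scalings. H3K27me3 at Wnt7a stood at 649, 753, 1338, 1085 and 704 CPM in the P7 libraries, in order of replicate, at 74.0, 63.0, 199 and 129 CPM at P12 and at 10.5, 13.8, 23.3, 25.8 and 25.8 CPM at P21. No library of one stage overlapped another stage. The log2 fold change of H3K27me3 was -5.53 ± 0.29 (SE, adjusted p = 7.11e-23) at P21 against P7 and -2.58 ± 0.29 (SE, adjusted p = 3.93e-09) at P21 against P12, and with the trended scaling it was -3.86 ± 0.18 (SE, adjusted p = 6.82e-18) and -2.31 ± 0.20 (SE, adjusted p = 3.84e-10) (edgeR quasi-likelihood test, Benjamini-Hochberg adjusted over all TSS tested). Within replicates 1 and 2 the change from P7 to P21 was -5.88 and within replicates 3 to 5 it was -5.36. At Wnt7a, H3K4me3 measured 27.4, 28.7 and 29.9 CPM at P7, 76.3 and 89.7 CPM at P12 and 80.0 and 91.4 CPM at P21. The P7 libraries all lay below the later ones, and P12 and P21 overlapped. H3K4me3 rose by 1.61 ± 0.30 (SE, adjusted p = 8.12e-06) from P7 to P21, by 1.54 ± 0.32 (SE, adjusted p = 0.000183) from P7 to P12, and its difference between P12 and P21, 0.07 ± 0.33 (SE, adjusted p = 1), did not pass the test. The H3K27me3 region over the TSS spanned 46.2 kb at P7 and 26.9 kb at P12 and was not found at P21, when 0 of 5 libraries had a peak there. Against the other TSS, mean H3K27me3 at Wnt7a went from percentile 98.5 at P7 to percentile 52.6 at P21, and mean H3K4me3 from 57.3 to 90.1.

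**Figure D2:**
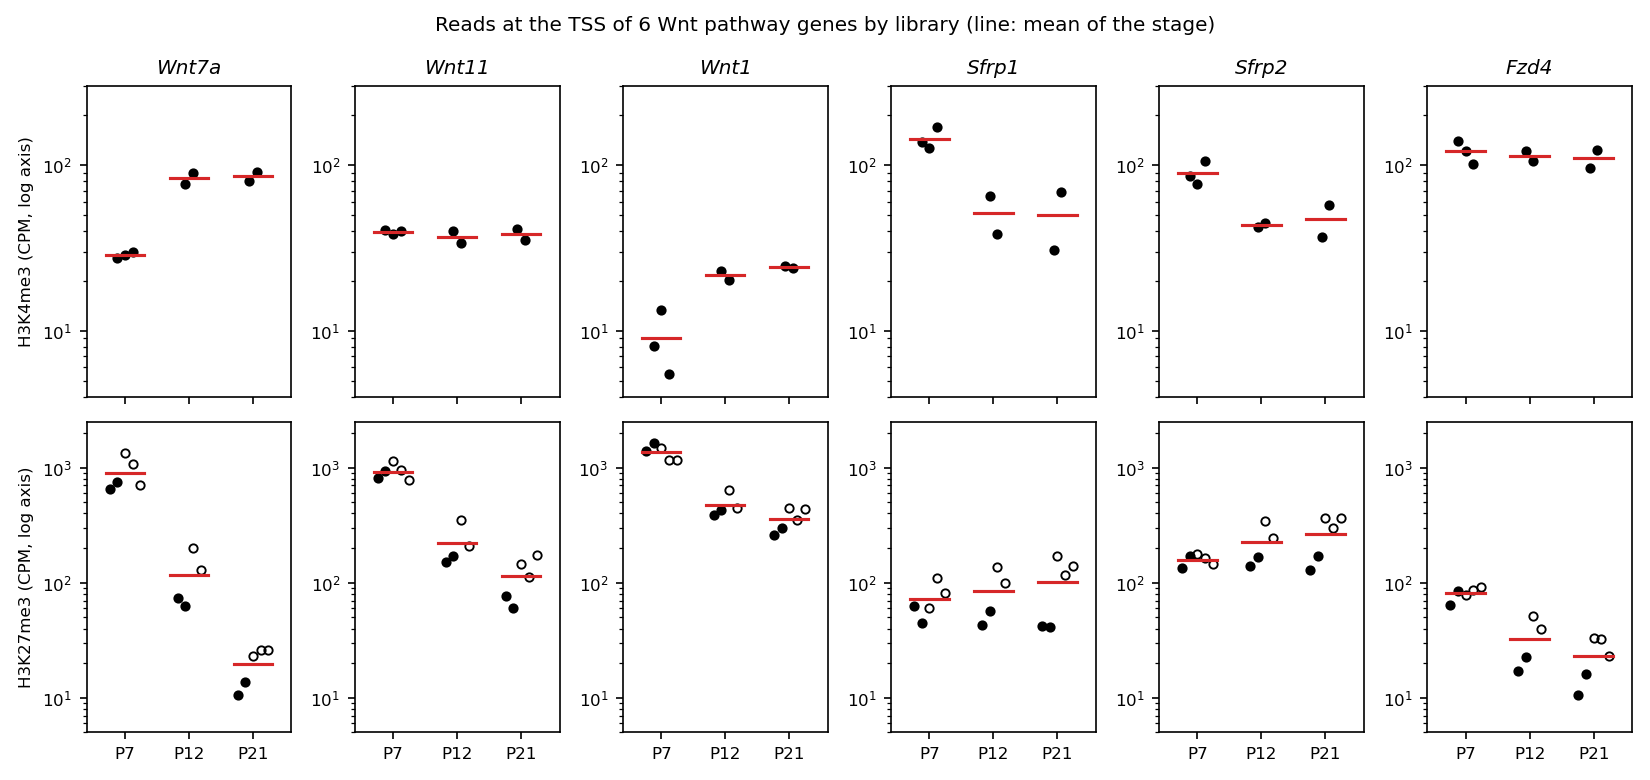
Reads at 6 TSS in each library (CPM after TMM scaling, log axes) for H3K4me3 (top) and H3K27me3 (bottom) at P7, P12 and P21; points are libraries, red lines stage means, and open points H3K27me3 replicates 3 and later. H3K27me3 at Wnt7a falls from 906 to 19.9 CPM while H3K4me3 rises from 28.6 to 85.7 CPM, and the H3K4me3 points of Wnt11 and Fzd4 overlap between stages while their H3K27me3 falls.

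Of the other Wnt ligands, 16 of 18 fell in H3K27me3 from P7 to P21 with TMM, all but Wnt5a and Wnt5b, but for 11 of those 16 the call was lost or changed direction with the trended scaling. With TMM, 32 of the 40 genes tested were called, 31 lower and 1 higher, against 48.9% of all TSS called, 23.5% lower and 25.4% higher, and their median log2 change was -1.70. With the trended scaling 21 were called, 12 lower and 9 higher, against 34.4% of all TSS, 19.7% lower and 14.7% higher, and the median was -0.02. Scaled by library totals alone, 30 were called, 22 lower and 8 higher, against 15115 of all 18089 TSS tested. Of the 19 Wnt ligands, 17 fell with TMM, whereas 6 fell and 5 rose with the trended scaling. Fzd3 had too few H3K27me3 reads to be tested.

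Wnt11, Wnt7b and Wnt6 fell with both scalings. Wnt11 acts mainly through β-catenin-independent routes. The P7 libraries had H3K27me3 at Wnt11 of 817, 939, 1136, 960.3 and 774 CPM, the P12 libraries 152, 171, 348 and 208 CPM, and the P21 libraries 76.3, 59.7, 146, 112 and 175 CPM. The P7 libraries lay above all later ones, and the P21 range overlapped the P12 range. The change from P7 to P21 was -3.08 ± 0.25 (SE, adjusted p = 6.65e-16) with TMM and -1.11 ± 0.12 (SE, adjusted p = 1.18e-09) with the trended scaling. H3K27me3 at Wnt7b stood at 423, 447, 845, 728 and 506 CPM in the P7 libraries, in order of replicate, at 51.6, 77.5, 228 and 167 CPM at P12 and at 44.8, 48.2, 177, 142 and 124 CPM at P21. Wnt7b, a ligand of vascular and dendrite development, thus stood lower in every P12 and P21 library than at P7, by -2.58 ± 0.24 (SE, adjusted p = 2.66e-13) at P21 with TMM and -0.91 ± 0.14 (SE, adjusted p = 3.51e-06) trended. At Wnt6, H3K27me3 measured 654, 735, 839, 919 and 636 CPM at P7, 139, 157, 464 and 319 CPM at P12 and 63.2, 94.2, 241, 170.0 and 204 CPM at P21. At Wnt6 every P7 library lay above the later ones after TMM scaling, but not by library totals alone. The same change was -2.42 ± 0.25 (SE, adjusted p = 2.95e-12) with TMM and -0.44 ± 0.11 (SE, adjusted p = 0.00255) trended. The trended change was -0.27 (adjusted p = 0.183) within replicates 3 and later. Wnt9b (-2.20 and -0.38) and Wnt2 (-1.73 and -0.50) were the other ligands called lower with both.

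At Wnt3, Wnt10b and Wnt1 the direction or the call depended on the scaling. In the P7 libraries H3K27me3 at Wnt3 was 928, 1074, 996, 1094 and 909 CPM, in those of P12 215, 200.2, 427 and 325 CPM, and in those of P21 105, 163, 309.6, 224 and 226 CPM. The P7 libraries lay above all others. Wnt3, a ligand that acts through β-catenin, changed by -2.34 ± 0.23 (SE, adjusted p = 1.49e-12) with TMM and by -0.19 ± 0.10 (SE, adjusted p = 0.165) with the trended scaling, which did not pass the test. H3K27me3 at Wnt10b stood at 859, 1020, 972, 955 and 816 CPM in the P7 libraries, in order of replicate, at 222, 247, 361 and 311 CPM at P12 and at 153, 145, 262, 169 and 284 CPM at P21. Wnt10b, also a β-catenin ligand, changed by -2.22 ± 0.23 (SE, adjusted p = 3.02e-12) and, not called, by -0.12 ± 0.11 (SE, adjusted p = 0.39). At Wnt1, H3K27me3 measured 1397, 1622, 1496, 1157 and 1169 CPM at P7, 391, 433, 643 and 442 CPM at P12 and 258, 296, 442, 348 and 438 CPM at P21. These were the highest stage means of the 41 genes, at percentile 99.9 of all TSS at each stage. The change at Wnt1 was -1.96 ± 0.23 (SE, adjusted p = 1.15e-10) with TMM and reversed to 0.52 ± 0.09 (SE, adjusted p = 1.73e-05) with the trended scaling. In CPM every P21 library lay below every P7 library, so the trended rise is relative to TSS of like level. Wnt3a, Wnt8b and Wnt16, with Rspo4 and Dkk3, were likewise called lower with TMM and higher with the trended scaling, and 13 genes were called lower with TMM and not called with the trended scaling.

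**Figure D3:**
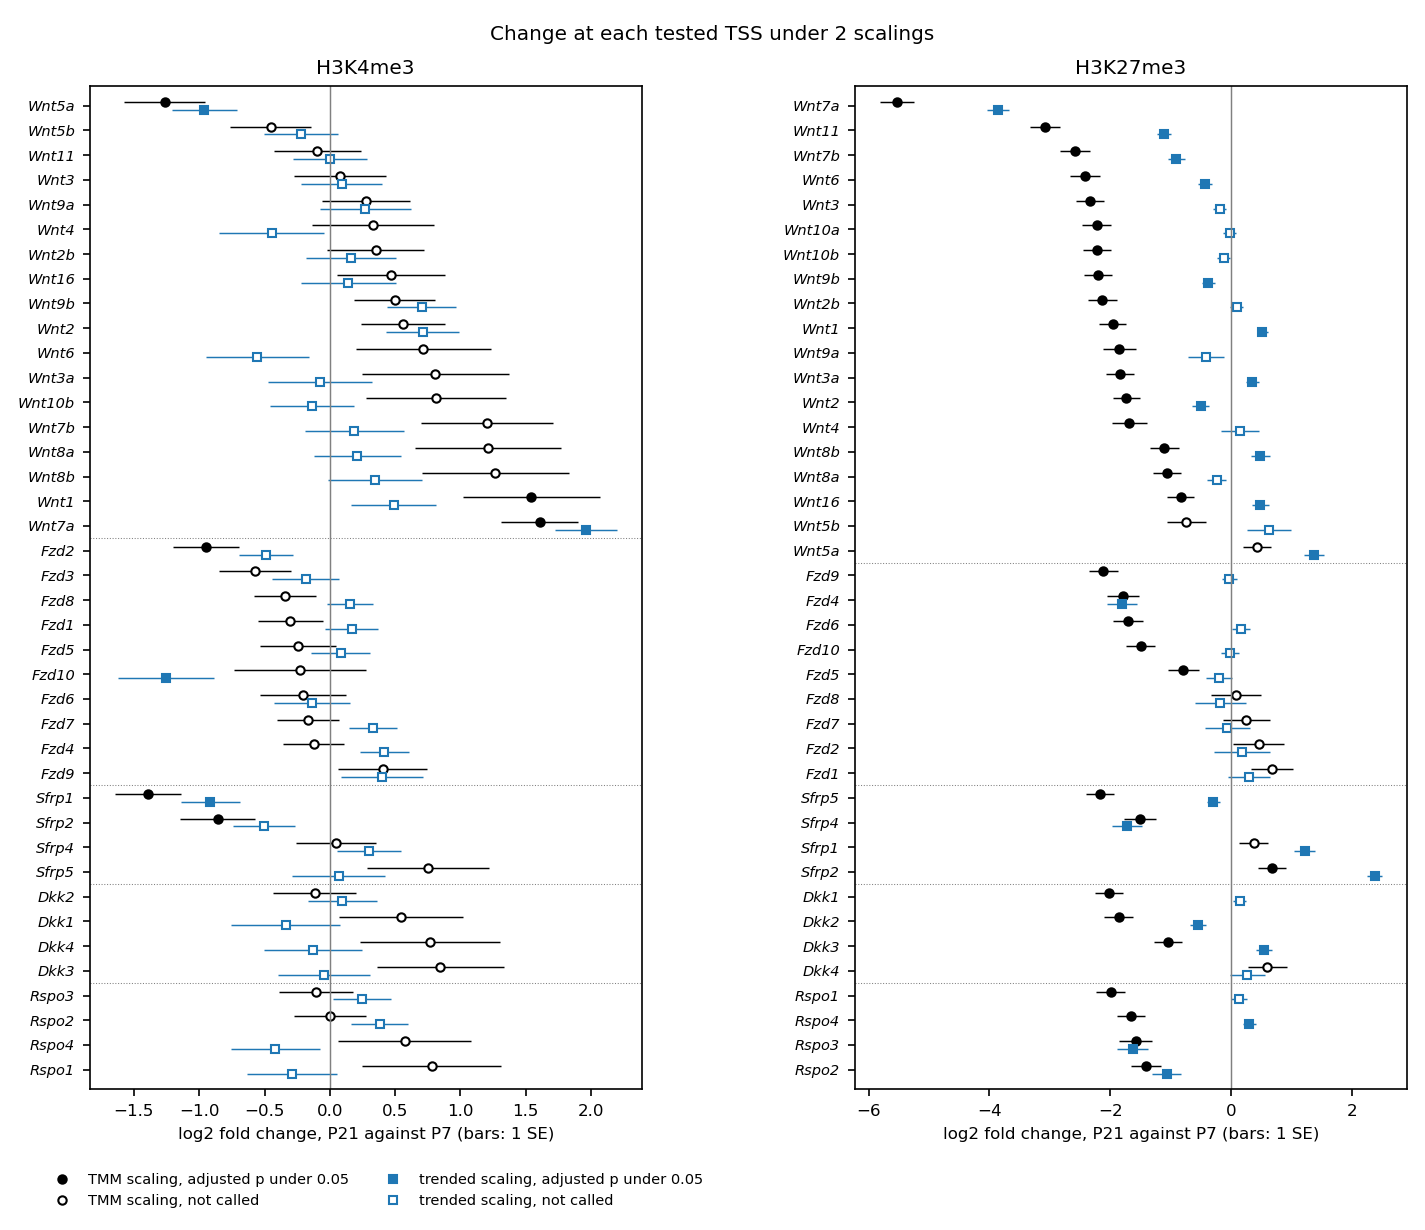
Log2 fold change of H3K4me3 (left) and H3K27me3 (right), P21 against P7, at each tested TSS, with 1 SE; black circles use TMM, blue squares the trended scaling, and filled symbols have an adjusted p under 0.05. In H3K27me3 31 black symbols are called below 0, whereas the blue ones lie on both sides, with Wnt7a at -3.86 and Sfrp2 at 2.38.

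H3K4me3 changed at few of these TSS: 6 of 40 tested were called at P21 against P7, 2 higher and 4 lower, against 23.3% of all TSS, 8.98% higher and 14.4% lower. With the trended scaling 4 were called, 1 higher and 3 lower, against 6.45%, 2.87% higher and 3.58% lower. Scaled by library totals alone, 3 rose and 3 fell, against 4028 of all 20748 TSS called. Wnt10a had too few H3K4me3 reads to be tested. Among ligands, Wnt5a, which signals mainly without β-catenin, fell. The P7 libraries had H3K4me3 at Wnt5a of 105, 68.8 and 63.6 CPM, the P12 libraries 40.1 and 42.6 CPM, and the P21 libraries 30.8 and 35.6 CPM. Every P7 library lay above the later ones, and the change was -1.26 ± 0.31 (SE, adjusted p = 0.00148) with TMM and -0.96 ± 0.25 (SE, adjusted p = 0.0204) trended; its adjusted p was 0.0729 without P21 replicate 1 and 0.0606 without replicate 2. H3K27me3 at Wnt5a stood at 69.3, 72.0, 124, 91.9 and 105 CPM in the P7 libraries, in order of replicate, at 41.3, 43.6, 121 and 87.5 CPM at P12 and at 84.2, 80.4, 209.6, 118 and 134 CPM at P21. The stages overlapped, and H3K27me3 at Wnt5a changed by 0.43 ± 0.23 (SE, adjusted p = 0.112) with TMM, which did not pass the test, and rose by 1.37 ± 0.17 (SE, adjusted p = 3.93e-08) with the trended scaling. At Wnt1, H3K4me3 measured 8.11, 13.4 and 5.50 CPM at P7, 22.9 and 20.2 CPM at P12 and 24.6 and 23.9 CPM at P21. Wnt1 rose by 1.54 ± 0.52 (SE, adjusted p = 0.024) with TMM and was not called with the trended scaling, at 0.49 ± 0.33 (SE, adjusted p = 0.468); its P21 mean lay at percentile 41.7 of all TSS and 0 of 7 libraries had a peak there. In the P7 libraries H3K4me3 at Wnt3 was 30.0, 36.3 and 30.6 CPM, in those of P12 42.0 and 40.4 CPM, and in those of P21 36.9 and 31.4 CPM. At Wnt3 the P7 and P21 ranges overlapped and the difference, 0.08 ± 0.35 (SE, adjusted p = 0.858), did not pass the test. Without P7 replicate 2, 11 genes were called, 5 higher and 6 lower, against 11444 of all 22384 TSS tested. The 95th percentile of that library was 5.15 times its median, against 9.06 and 9.32 times in replicates 1 and 3. At P21 the comparison rests on 2 libraries, and leaving out either lowered the count.

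Several ligand genes lie in neighbouring pairs (GRCm38.p6). Wnt6 and Wnt10a start 20.1 kb apart on chromosome 1 and shared 1 H3K27me3 region of 60.0 kb at P7, 37.3 kb at P12 and 53.6 kb at P21. Wnt10b and Wnt1 start 11.7 kb apart on chromosome 15, facing away from each other. They shared a region of 43.7 kb at P7 and 43.1 kb at P12, and at P21 stood in separate regions of 15.4 and 26.0 kb. The pairs Wnt3a and Wnt9a, 16.2 kb apart, and Wnt9b and Wnt3, 24.4 kb apart, both on chromosome 11, stood in separate regions at every stage. Region widths depend on how much was called in each library and were not tested.

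The Frizzleds differed widely in H3K27me3 at P7: mean levels were 12.8 to 19.5 CPM at Fzd1, Fzd2, Fzd3, Fzd7 and Fzd8 and 80.8 to 823 CPM at the others. Mean H3K4me3 at P7 was 101 to 121 CPM at Fzd1, Fzd2, Fzd4, Fzd7 and Fzd8, and 19.1 CPM at Fzd10. H3K4me3 fell at 1 of 10 with TMM, Fzd2. H3K4me3 at Fzd2 stood at 128, 97.5 and 131 CPM in the P7 libraries, in order of replicate, at 72.5 and 56.1 CPM at P12 and at 41.0 and 75.0 CPM at P21. Later libraries all lay below P7, by -0.95 ± 0.25 (SE, adjusted p = 0.00405) at P21, and with the trended scaling the change of -0.49 ± 0.21 (SE, adjusted p = 0.185) did not pass the test. With the trended scaling 1 other Frizzled, Fzd10, was called lower, at -1.26 ± 0.37 (SE, adjusted p = 0.041) against -0.23 ± 0.51 (SE, adjusted p = 0.714) with TMM. At Fzd2, H3K27me3 measured 22.0, 15.0, 12.1, 17.0 and 10.5 CPM at P7, 5.16, 0, 21.8 and 13.7 CPM at P12 and 7.90, 6.89, 44.6, 30.1 and 16.3 CPM at P21. The libraries of replicates 3 and 4 were the highest at P12 and P21, and the change was not called with either scaling.

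H3K27me3 fell at 5 of 9 Frizzleds tested with TMM (Fzd4, Fzd5, Fzd6, Fzd9 and Fzd10), against 23.5% of all TSS, and at 1, Fzd4, with the trended scaling, against 19.7%. Fzd4 is the receptor of retinal and cerebellar vessel development and also binds norrin. The P7 libraries had H3K27me3 at Fzd4 of 64.3, 84.0, 78.7, 85.9 and 91.3 CPM, the P12 libraries 17.2, 22.6, 51.5 and 39.5 CPM, and the P21 libraries 10.5, 16.1, 33.0, 32.3 and 23.1 CPM. After TMM scaling, but not by library totals alone, the P7 libraries lay above every later one. The change from P7 to P21 was -1.79 ± 0.26 (SE, adjusted p = 5.94e-08) with TMM and -1.81 ± 0.24 (SE, adjusted p = 2.59e-07) trended. Scaled by library totals, the change from P7 to P12 was -0.32 (adjusted p = 0.241), not called. H3K4me3 at Fzd4 stood at 139, 122 and 102 CPM in the P7 libraries, in order of replicate, at 122 and 105 CPM at P12 and at 96.4 and 123 CPM at P21. H3K4me3 at Fzd4 overlapped between all stages and changed by -0.12 ± 0.23 (SE, adjusted p = 0.66), which did not pass the test. Peaks of H3K27me3 were present at Fzd4 in 5 of 5 libraries at P7, 2 of 4 at P12 and 0 of 5 at P21. At the 5 Frizzleds with the lowest H3K27me3, peaks were called at P7 in 2 or 3 of 5 libraries.

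Among the secreted inhibitors, Sfrp1 and Sfrp2 lost H3K4me3 with TMM, and both were called higher in H3K27me3 with the trended scaling, Sfrp1 through replicates 3 and later. At Sfrp1, H3K4me3 measured 137, 126 and 169 CPM at P7, 64.9 and 38.1 CPM at P12 and 30.8 and 68.4 CPM at P21. Every P7 library lay above the later ones, and H3K4me3 at Sfrp1 changed by -1.39 ± 0.25 (SE, adjusted p = 6.35e-06) with TMM and -0.92 ± 0.23 (SE, adjusted p = 0.0148) trended; without P21 replicate 1 the trended change was -0.66 (adjusted p = 0.175). In the P7 libraries H3K27me3 at Sfrp1 was 62.6, 45.0, 60.6, 111 and 80.8 CPM, in those of P12 43.0, 56.5, 137 and 100.3 CPM, and in those of P21 42.1, 41.4, 169.8, 116 and 139 CPM. The stages overlapped, and the change was 0.37 ± 0.25 (SE, adjusted p = 0.198) with TMM, not called, and 1.22 ± 0.18 (SE, adjusted p = 7.93e-07) trended. Within replicates 1 and 2 the H3K27me3 change at Sfrp1 had the other sign, -0.49 with TMM (adjusted p = 0.24) and -0.75 trended (adjusted p = 0.099), and within replicates 3 and later it was 0.74 (adjusted p = 0.114) and 1.59 (adjusted p = 4.97e-06).

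H3K4me3 at Sfrp2 stood at 86.2, 76.4 and 106 CPM in the P7 libraries, in order of replicate, at 42.0 and 44.9 CPM at P12 and at 36.9 and 57.2 CPM at P21. H3K4me3 at Sfrp2 fell by 0.86 ± 0.29 (SE, adjusted p = 0.0218) with TMM, and its change with the trended scaling, -0.51 ± 0.24 (SE, adjusted p = 0.248), was not called. At Sfrp2, H3K27me3 measured 134, 171, 179, 164 and 145 CPM at P7, 141, 168, 343 and 247 CPM at P12 and 129, 172, 366, 298 and 368 CPM at P21. After TMM scaling, replicates 1 and 2 gave like values at all stages, and replicates 3 and later were higher at P12 and P21. By library totals alone, P21 replicates 1 and 2 both lay above P7 replicates 1 and 2. The gain was 0.67 ± 0.23 (SE, adjusted p = 0.0137) with TMM, the only one among the 40 genes, and 2.38 ± 0.12 (SE, adjusted p = 5.75e-17) with the trended scaling. Within replicates 1 and 2 it was -0.056 with TMM (adjusted p = 0.863) and 1.87 trended (3.9e-08), and within replicates 3 to 5 it was 1.11 (0.00709) and 2.55 (3.85e-10). Without P7 replicate 4 the edgeR test with TMM gave 0.60 (adjusted p = 0.0549), not called. The H3K27me3 region over Sfrp2 spanned 6.7, 9.6 and 14.6 kb at P7, P12 and P21.

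Sfrp5 and Sfrp4 moved the other way. The P7 libraries had H3K27me3 at Sfrp5 of 551, 642, 651, 649 and 569 CPM, the P12 libraries 164, 218, 416 and 265 CPM, and the P21 libraries 86.9, 98.8, 194, 153 and 174 CPM. Each P7 library lay above the later ones after TMM scaling, but not by library totals alone. Scaled by library totals, the change from P7 to P12 was -0.25 (adjusted p = 0.151), not called. From P7 to P21 Sfrp5 changed by -2.16 ± 0.23 (SE, adjusted p = 1.14e-11) with TMM and -0.30 ± 0.10 (SE, adjusted p = 0.0266) trended. The trended call was lost within replicates 1 and 2 (-0.41, adjusted p = 0.112), within replicates 3 and later (-0.28, adjusted p = 0.173) and without P21 replicate 2, 3 or 5 (adjusted p = 0.0673, 0.0982 and 0.104). Sfrp4 changed by -1.51 ± 0.26 (SE, adjusted p = 2.2e-06) and -1.72 ± 0.25 (SE, adjusted p = 8.71e-07), and its peaks went from 5 of 5 libraries at P7 to 0 of 5 at P21. Of the Dkk genes, Dkk2 fell in H3K27me3 with both scalings (-1.86 and -0.55), Dkk1 with TMM alone (-2.03 and 0.14) and Dkk3 changed direction (-1.04 and 0.55). Dkk4 had no peak of either mark in any library, and 0 of 4 Dkk genes changed in H3K4me3 with either scaling.

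The R-spondins fell into 2 pairs by their marks at P7. Rspo2 and Rspo3 had both marks, with mean H3K4me3 of 66.5 and 68.1 CPM, and Rspo1 and Rspo4 had H3K27me3 only, at 824 and 638 CPM. H3K27me3 fell with both scalings at Rspo2 (-1.41 and -1.06) and Rspo3 (-1.58 and -1.63), and with TMM alone at Rspo1 (-1.99 and 0.13), while Rspo4 changed direction (-1.66 and 0.30). H3K4me3 passed the test at 0 of 4. At P21 Rspo2 and Rspo3 were counted without H3K4me3 at means of 65.1 CPM each, with a peak in 1 of 2 libraries.

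The comparison of P21 with P12, in which nuclei had been isolated alike, called few of these genes. In H3K4me3 0 of 40 were called with either scaling, as were 0% of all TSS, and at an unadjusted p under 0.05 there were 0 of these genes and 206 of 20748 TSS (DESeq2 also called 0 of them). In H3K27me3 4 of 40 were called, 0 higher and 4 lower, against 3.97% of all TSS, 0.918% higher and 3.06% lower: Wnt7a (-2.58), Wnt11 (-1.01), Sfrp5 (-0.95) and Wnt6 (-0.86). The same 4 were called lower with the trended scaling, as was Rspo3 (-0.90), and Sfrp2 (0.48) and Wnt5a (0.70) rose, 7 genes against 4.87% of all TSS, 0.962% higher and 3.91% lower. Scaled by library totals, 1 rose and 6 fell, against 972 of all 18089 TSS called. With TMM, 1 of the 4, Wnt7a, was called within replicates 3 and later, and all 4 within replicates 1 and 2. With the trended scaling, Wnt7a alone of the 7 was called within replicates 1 and 2 and within replicates 3 and later, and leaving out P12 replicate 3 left Wnt7a, Wnt11 and Sfrp5, so that neither rise was called. Same-numbered H3K27me3 libraries of P12 and P21 deviated together. Unlike-numbered ones within replicates 1 and 2 or within replicates 3 and 4 did so too. Pairs by number thus cannot be told apart from these groups of replicates. With the replicate as a block, the calls at Wnt6 with TMM (-0.79, adjusted p = 0.0752) and at Rspo3 with the trended scaling (-0.80, adjusted p = 0.104) were lost.

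At P12 against P7, H3K4me3 had already changed at 6 of 40 genes, against 14.5% of all TSS. Sfrp1, Sfrp2, Fzd2 and Wnt5a were the 4 lower ones, against 9.21% of all TSS, and Wnt7a and Wnt8b the 2 higher ones, against 5.34%. With the trended scaling Sfrp1 and Fzd10 fell and Wnt7a rose, 3 genes against 3.35% of all TSS, 1.58% lower and 1.77% higher. With library totals 1 fell and 3 rose, against 2220 of all 20748 TSS called. In H3K27me3 30 genes fell and 1, Fzd1, rose, against 36.4% of all TSS, 22% lower and 14.4% higher. With the trended scaling 10 fell and 5 rose, against 27.4% of all TSS, 16.1% lower and 11.3% higher. With library totals 18 fell and 7 rose, against 13744 of all 18089 TSS called. The comparisons share libraries and are not independent of each other.

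H3K27me3 replicates 3 and 4 stood apart from replicates 1 and 2 at GC-rich genes, and their inputs were those with peaks at these TSS. The median difference on the log2 CPM scale, replicates 3 and 4 over replicates 1 and 2, was 0.16 at P7, 0.86 at P12 and 0.98 at P21. At P21 it was highest at Wnt5b (2.97), Wnt4 (2.79), Fzd2 (2.17) and Wnt9a (2.05), with a GC content of 71.4%, 78.3%, 63.4% and 72.5%, and lowest at Dkk4 (-0.23, 47.3%). Across the 41 genes, which share libraries, Pearson's r with GC content was 0.60, 0.71 and 0.79 at P7, P12 and P21 and Spearman's rho 0.70, 0.73 and 0.80. Replicate 5 at P21 also stood above replicates 1 and 2, though its input had peaks at 0 of the 41 TSS. Its difference was 1.71 at Wnt5b, 1.59 at Wnt4, 1.05 at Fzd2, 0.76 at Wnt9a and -0.55 at Dkk4. Replicates 1 and 2 shared 1 input per stage and later replicates had their own, and the fit for H3K27me3 included that arrangement. Of the 32 genes called at P21 against P7, 31 kept the direction and 31 were called within replicates 1 and 2, and 32 kept it and 27 were called within replicates 3 and later.

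**Figure D4:**
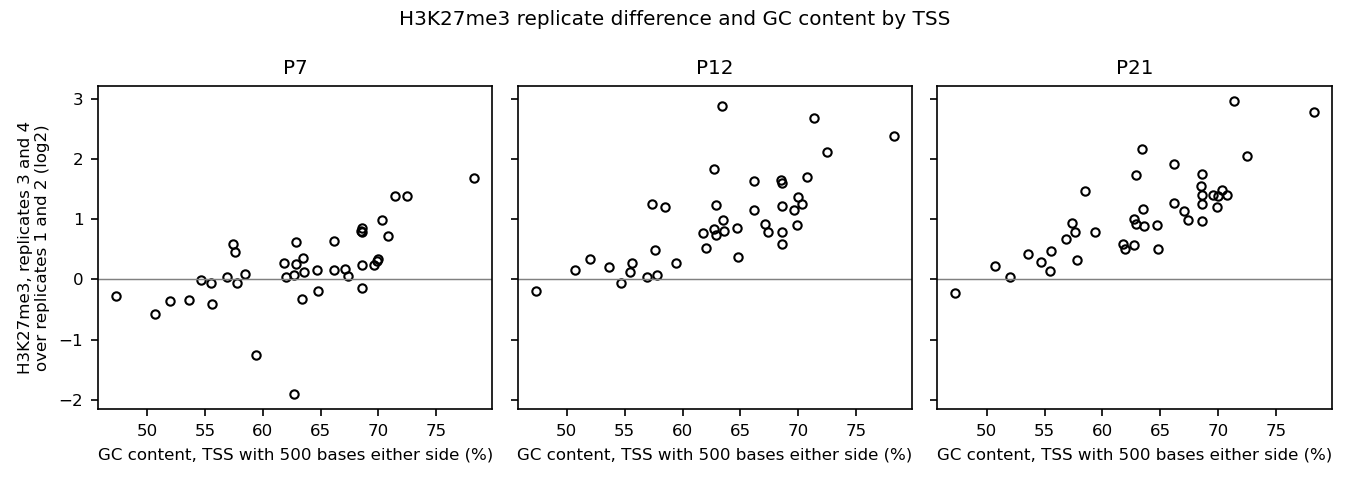
Difference in H3K27me3 between replicates 3 and 4 and replicates 1 and 2 (mean log2 CPM) against GC content of the 1 kb around each of the 41 TSS, at P7, P12 and P21; each point is a gene. The points rise with GC content at each stage, and at P21 all but Dkk4 lie above 0.

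Elsewhere in the pathway, changes from P7 to P21 were mixed, and the lists were chosen with earlier results of these data known. Over all TSS, 14.4% fell and 8.98% rose in H3K4me3 with TMM (3.58% and 2.87% trended), and 23.5% fell and 25.4% rose in H3K27me3 (19.7% and 14.7% trended), against which the counts below are to be read. Of 14 tested co-receptors and receptor regulators, H3K4me3 fell at 2 with TMM and 0 trended, and H3K27me3 fell at 5 and rose at 2 of 11 with TMM (4 and 2 trended). The regulators Kremen2 (-2.85 and -0.98 trended), Rnf43 (-2.58 and -2.40), an E3 ligase that removes Frizzleds, and Lgr6 (-1.91 and, not called, -0.06) had the smallest p in H3K27me3. Of 14 genes of Wnt secretion and other extracellular modulators, 3 fell in H3K4me3 with TMM (Gpc4, Draxin and Wls) and 2 trended, and in H3K27me3 6 of 13 fell and 3 rose with TMM (3 and 4 trended), led by the inhibitors Sost (-2.47 and -2.23) and Frzb (-2.21 and -2.37) and by Dkkl1 (-1.82 and -0.60). Of 24 cytoplasmic and nuclear effectors 8 fell and 1 rose in H3K4me3 with TMM (0 and 1 trended), and in H3K27me3 4 of 13 fell and 5 rose (2 and 4 trended). The co-repressor gene Tle2 rose in H3K4me3 (1.03 and 1.24) and fell in H3K27me3 (-3.16 and -3.60), and the nuclear effector gene Tcf7l2 rose in H3K27me3 (3.74 and 4.30). Of 10 planar cell polarity genes H3K4me3 fell at 3 with TMM and 0 trended, and H3K27me3 rose at 4 of 7, led by Prickle2 (2.13 and 2.81), and fell at 2 (3 and 1 trended). Of 9 feedback and target genes H3K4me3 fell at 4 with TMM (2 trended), led by Myc (-1.31 and -0.90) and Sp5 (-1.21 and -1.04), and H3K27me3 rose at 2 of 7 and fell at 4 (4 and 1 trended), with Myc at 3.70 and 4.30.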

How the data were processed

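Read counts per TSS and peak lists came from 21 ChIP libraries and 18 inputs. The deposited table holds whole-number counts, used as raw counts; no source used here gives the window counted around each TSS. The deposited peak lists carry a score per peak, which served only for a stricter alternative. Per the submitters' processing notes, the build was mm10 and the tools included HOMER 4.11 and ChIPseeker 1.30.3. Libraries were made with one of 2 kits, not stated per library.

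Entrez IDs were matched to RefSeq GRCm38.p6 records for 23992 of 24045 TSS. The members, the lists and the rule for genes with per-library values (the 6 smallest adjusted p per direction and mark at P21 against P7, calls at P21 against P12, calls in both marks, Wnt7a and Wnt3) were chosen with earlier results of these data known; Fzd4 was added after its values were seen. Counts were tested with edgeR 4.0.16 (R 4.3.3; quasi-likelihood, robust, TMM, low counts filtered by stage), 1 fit per mark over all stages, with the input arrangement as a term for H3K27me3; 20748 and 18089 TSS were tested, adjusted after Benjamini and Hochberg at 0.05. The trended scaling used a loess curve of span 0.3 on the mean level. Tested on simulated data for P21 against P7, the fit recovered 80% of 4-fold and 30.3% of 2-fold changes in H3K4me3 (18858 TSS) and 96.5% and 26.4% in H3K27me3 (15619 TSS). Replicate numbers are not stated to mark shared animals or days, so the main fits have no replicate block. Deviations of same-numbered libraries from their stage means correlated at 0.349 to 0.648 in all 4 pairs of H3K27me3 at P12 and P21, which were therefore taken as pairs from the data, and blocked values are given where they change a call. Same-numbered libraries were not taken as pairs in H3K27me3 between P7 and P12 (0.073 to 0.318) or P21 (-0.087 to 0.293). In H3K4me3 (-0.303 to 0.071) each comparison had 2 same-numbered pairs, too few to judge pairing, and none were taken as pairs. Unlike-numbered H3K27me3 libraries of P12 and P21 correlated at 0.366 and 0.508 within replicates 1 and 2. Within replicates 3 and 4 they correlated at 0.213 and 0.274. Pairs by number therefore cannot be told apart from these groups of replicates. DESeq2 1.42.0 and the other alternatives are given in the closing section. Python 3.11.15 and pandas 2.3.3 handled peaks and sequences.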

Additional observations from a re-analysis of the deposited data

Results flagged for a closer look

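No library stood far from the others of its stage by Dixon's criterion in the 39 H3K27me3 groups of 4 or 5 libraries looked at for the 13 genes with per-library values; chance gives about 1 in 20.

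Input libraries, which the comparisons of reads did not use, held peaks at these TSS. The P7 inputs of H3K27me3 replicates 3 and 4 had a peak at 29 and 16 of the 41 TSS, the P12 inputs at 34 and 30, and the P21 inputs at 22 and 33. The inputs of replicates 1, 2 and 5 and of all H3K4me3 libraries had 0. Over all TSS the share with a peak in the inputs of replicates 3 and 4 was 22.0% to 52.8%, so the signal is not confined to Wnt genes. In each of these inputs the share was higher among the 41 TSS than over all TSS. The part of this input signal in the H3K27me3 values of the same replicates was not tested.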

How the results depend on the processing

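The H3K27me3 fall at Wnt7a and Wnt11 from P7, and the H3K4me3 rise at Wnt7a from P7 to P21, kept direction and call under every alternative run; the H3K4me3 fall at Sfrp1 from P7 to P21 did so except with the trended scaling without P21 replicate 1 (-0.66, adjusted p = 0.175). In H3K4me3, 6 genes were called at P21 against P7 (2 to 11 leaving out 1 library) and 6 at P12 against P7 (0 to 12; 3 with the trended scaling). Without P7 replicate 2 the counts were 11 and 12, against 11444 and 8191 of all 22384 TSS tested. Without P7 replicate 3 the second was 3, against 1694 of 20292 TSS. Leaving out a P12 or P21 replicate left 1 library at that stage and gave the low ends of these ranges. In H3K27me3, 32 genes were called at P21 against P7 (32 to 34 leaving out 1 library; 21 trended), 31 at P12 against P7 (29 to 32; 15 trended; 16 within replicates 3 and later) and 4 at P21 against P12 (2 to 5; 2 without P12 replicate 3 or P21 replicate 2). The last count was 7 with library totals, 7 trended, 9 with DESeq2, 8 from the 2 stages alone, 1 without the input arrangement, 9 within replicates 1 and 2 and 1 within replicates 3 and later; the cause was not tested. A fit with the replicate as a block called 3, 2 and 0 genes in H3K4me3 and 33, 31 and 3 in H3K27me3 at P21 against P7, P12 against P7 and P21 against P12. H3K4me3 had 2 same-numbered pairs per comparison, too few to judge pairing. In H3K27me3 the numbers met the criterion for pairs only in the last comparison. There the block ended the call at Wnt6 with TMM and at Rspo3 with the trended scaling and no other call of these genes.

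Genes with peaks of both marks numbered 22, 5 and 2 at P7, P12 and P21, and 13 to 22, 2 to 7 and 1 to 18 leaving out 1 library. Where this left 1 H3K4me3 library at P12 or P21, a peak in that library sufficed. They were 8, 2 and 0 when every library had to hold a peak, 6, 1 and 1 with peaks at or above the median score, 2, 0 and 0 without peaks that overlap an input peak, and 17, 2 and 0 with H3K27me3 replicates 1 and 2 only. With 500 bases on either side they were 17, 5 and 1, and at least 200 shared bases gave 1 at P21. Reversed values were H3K27me3 at Wnt1 with the trended scaling (0.52 at P21 and 0.26 at P12 against P7), at Sfrp5 at P12 against P7 (0.26 trended) and at Sfrp2 at P21 against P7 (-0.056 within replicates 1 and 2). Within replicates 1 and 2 the trended H3K27me3 gain also reversed at Sfrp1 (-0.75 at P21 and -0.27 at P12 against P7) and at Wnt5a at P12 against P7 (-0.20), and at P21 against P7 at Wnt5a it was not called (0.59, adjusted p = 0.112). Combinations of the trended scaling with other settings, and gene record starts, were chosen after seeing the data. Power was limited in both marks: at P21 against P7, 30.3% of simulated 2-fold changes were recovered in H3K4me3 and 26.4% in H3K27me3.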
